A study of Mus musculus with 8 samples.

Results

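The Magea genes are the mouse members of the MAGE-A family of cancer-testis antigens, X-linked genes of the germ line. Rows of the deposited expression table were taken where the gene symbol was Magea1, Magea2, Magea3, Magea4, Magea5, Magea6, Magea8 or Magea10. Of these 8 symbols, 7 had rows, which gave 7 genes of 17589 and 8 transcript entries of 45550. Magea1 had no row and is not analysed here. The family was selected on measured values, the FPKM of its members in the knockout and control libraries of this series, so the differences between knockout and control below are a description of its members and carry no test.

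The libraries came from germ cells of C57BL/6 mice that carry an Oct4-driven GFP reporter (GOF/deltaPE-Oct4/GFP), taken at 6 days after birth and sorted as GFP-positive cells. There were 4 control libraries and 4 libraries from mice with a conditional knockout of Kdm1a, the gene for a demethylase of lysine 4 on histone H3. All 8 carry the reporter. What drives the deletion, the full genotype of the controls and any pooling of animals were not given in the sources used here. Nor do the labels say that libraries came from separate mice, so a p-value here rests on the spread among the 8 samples alone, part of which may be technical.

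MAGE proteins share the MAGE homology domain, through which many of them bind E3 ubiquitin ligases and alter what those ligases modify. Type I genes, which include the Magea and Mageb subfamilies, are largely confined to the X chromosome and to germ cells in healthy tissue, while type II genes such as Maged1 and Ndn are widely expressed. In somatic cells the promoters of type I genes are usually methylated and silent, and loss of that methylation in tumours is a known route to their expression. In the mouse testis Magea genes are active in spermatogonia, the cells sorted here.

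The members lie in 2 places on the X chromosome of mm10, as annotated in GENCODE M21. The proximal pair spans 164.8 kb, with Magea4 (ENSMUSG00000033343) on the plus strand from 72222017 to 72222964 and Magea10 (ENSMUSG00000043453) on the minus strand from 72381870 to 72386858. The distal group of 6 genes spans 169.7 kb, all on the minus strand: Magea6 (ENSMUSG00000063728) from 154924012 to 154935987, Magea3 (ENSMUSG00000094196) from 154948543 to 154949505, Magea8 (ENSMUSG00000079350) from 154985775 to 154995850, Magea2 (ENSMUSG00000055746) from 155027201 to 155093666, Magea5 (ENSMUSG00000079349) from 155053061 to 155063145, and Magea1 from 155088686 to 155089793. The annotated span of Magea2 runs over Magea5 and Magea1 through Magea2-203, a transcript entry with no row. Its entry with a row, Magea2-201, runs from 155027201 to 155033292 and overlaps neither. Magea2-202 and Magea6-201 had no row either. Each of the 8 transcript entries has its coding sequence in 1 exon, with 1 exon in all for Magea3 and Magea4 and 3 or 4 exons for the others.

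The sequences around the annotated starts divide the members and are shown because the distal genes are near copies of each other. They come from RefSeq on GRCm38.p6, the build of mm10, and run from 100 bases before the annotated start to 25 after it, 5′ to 3′. Capitals mark CGCCATNTT, a YY1-type motif, and CGGAAG, an ETS-type motif, searched on both strands. All 6 motifs searched were chosen after the sequences had been read. The windows lie at chrX:154995826-154995950 for Magea8, chrX:155033268-155033392 for Magea2, chrX:72386834-72386958 for Magea10 and chrX:155061529-155061653 for Magea5, all on the minus strand.
Magea8: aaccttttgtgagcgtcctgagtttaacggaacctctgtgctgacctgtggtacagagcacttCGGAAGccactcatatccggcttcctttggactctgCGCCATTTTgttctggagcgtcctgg
Magea2: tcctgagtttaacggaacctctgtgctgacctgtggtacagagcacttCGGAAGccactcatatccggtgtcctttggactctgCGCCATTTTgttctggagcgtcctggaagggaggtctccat
Magea10: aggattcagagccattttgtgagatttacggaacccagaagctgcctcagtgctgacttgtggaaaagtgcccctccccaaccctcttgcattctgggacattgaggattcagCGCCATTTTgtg
Magea5: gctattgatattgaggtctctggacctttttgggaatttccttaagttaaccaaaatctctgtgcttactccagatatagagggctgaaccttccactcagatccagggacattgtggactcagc

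All 8 symbols had a window of 300 bases in the RefSeq table, 250 before the start and 50 after. The windows of Magea2 and Magea8 shared the most bases, with 264 of 285 aligned bases identical (92.6%). The YY1-type motif stood in 3 of the 8 windows, at -16 to -8 in Magea2, -1 to 8 in Magea8 and 14 to 22 in Magea10, counted from the annotated start with no position 0, and in 2.38% of all 32851 windows of that length. The ETS-type motif stood in 2 of 8, Magea2 and Magea8, and in 16.9% of all windows. These 2 windows are near copies and the motifs were chosen after reading the sequences, so nothing is read from either count. Of the 4 other motifs searched, CCAAT stood in 5 of 8 and in 37.4% of all windows. The E-box CACGTG (7.15% of all windows), TATAAA (13.6%) and the E2F-type TTCCCGCC (2.19%) stood in 0 of 8. Windows with the YY1-type motif also held the most CG pairs: 10 in Magea8, 9 in Magea2 and 5 in Magea10, against 0 to 2 in the other 5 and a median of 7 over all windows. The YY1-type and ETS-type motifs each hold a CG pair themselves, so nothing is read from this order either.

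A window is only as good as the annotated start. For Magea8, Magea10 and Magea1 the start is the outer end of the RefSeq gene, and for Magea2 it lies 21 bases inside, but for Magea4, Magea5, Magea3 and Magea6 it lies 1002, 1598, 9462 and 9959 bases inside. The GENCODE models of Magea3 and Magea4 begin at the ATG. The Magea4 window is placed at that same start (72222017). The Magea3 window is placed at a RefSeq start (154949569) just outside its GENCODE model. As both starts lie inside the RefSeq genes, these windows may not be promoters. The Magea6 window is placed at the start of Magea6-201 (154926115), which has no row. Magea6-202, the entry with a row, starts at 154935987. The entry of Magea5 that starts further upstream, Magea5-201, starts with 42 bases identical to the start of Magea8-201, although the Magea5 window above, placed at the start of Magea5-202, holds neither motif. No match says only that these letters are not in that window.

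How far a member can be told from its relatives differed widely. Aligned transcripts of the distal group were 94.7% to 99.2% identical between genes, the extreme being Magea2 with Magea1. Magea4 was 82.9% to 84.6% identical to the distal transcripts, and Magea10 63.9% to 67.4% to all others. Every 50-base stretch of Magea10 occurred in no other annotated Magea gene, and for Magea4 97.7% did not, against 61.0% for Magea6, 58.5% for Magea8, 52.5% and 45.2% for the Magea5 entries, 46.0% for Magea3, 41.7% for Magea2 and 24.1% for Magea1. Of the stretches of Magea1, 70.2% also occur in Magea2. The software divided reads shared among transcripts, so single values within the distal group are uncertain. Magea4 and Magea10 share few or none of these stretches with other Magea genes. Genes with other names and unannotated copies were not searched.

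**Figure D1:**
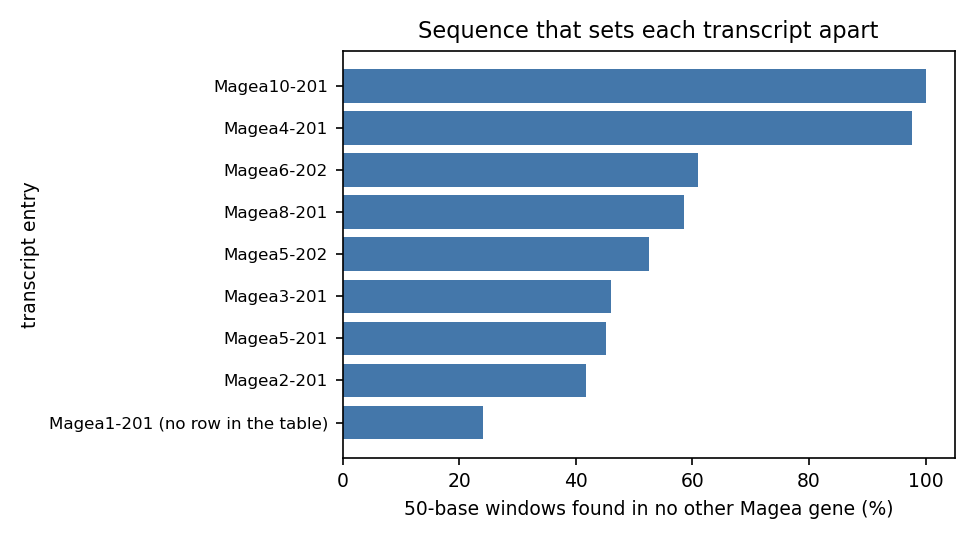
Share of the 50-base windows of each annotated transcript (one bar per entry, in percent) that occur in no other Magea gene. Magea10 stands at 100 and Magea4 at 97.7, the other entries with rows between 41.7 and 61.0, and Magea1, which has no row, at 24.1.

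Values are FPKM, fragments scaled to transcript length and library depth, summed over the entries of a gene. Levels of different genes are therefore on one scale, but those within the distal group remain uncertain, since its members share sequence. Depth was estimated from the step that a single fragment adds to low values: it was about 60650000 to 67400000 fragments per control library and 44850000 to 63300000 per knockout library. Kdm1a was at 48.1 to 92.0 FPKM in the controls against 14.1 to 17.3 in the knockouts (limma, adjusted p = 6.88e-05). Of 13483 genes that averaged 1 FPKM or more, 25.3% rose and 12.1% fell in the knockout by limma at an adjusted p under 0.05. Of these calls 67.6% were higher, a share that was 98.5% with every library scaled to the same FPKM total (equal totals), 46.2% after median-ratio scaling and, by quantile normalization, 50.1%. Among 609 X-linked genes 50.4% rose and 4.27% fell. The median log2 difference was 0.09 over all genes and 0.36 over X-linked genes. Germ cell markers had sums of 892.3 to 1049 FPKM in control libraries and 926.8 to 1069 in knockout libraries. Of the 8, Tex101 rose and Sall4, Nanos3 and Zbtb16 fell.

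In the controls the family summed to 56.1, 51.3, 55.4 and 48.4 FPKM in replicates 1 to 4. In the knockouts it summed to 220.9, 186.9, 194.3 and 170.2. The groups did not overlap, and the means were 52.8 ± 3.62 and 193.1 ± 21.1 (SD, n = 4), a 3.66-fold higher level. On the log2(FPKM + 1) scale the difference was 1.85, or 1.75 above the median of all genes tested. All 7 members passed the filter of a mean of 1 FPKM. In 6 of them all knockout values lay above all control values, a separation seen in 26.1% of all genes tested and 46.8% of the X-linked ones; nothing is read from that count, since the members were chosen with this contrast known.

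**Figure D2:**
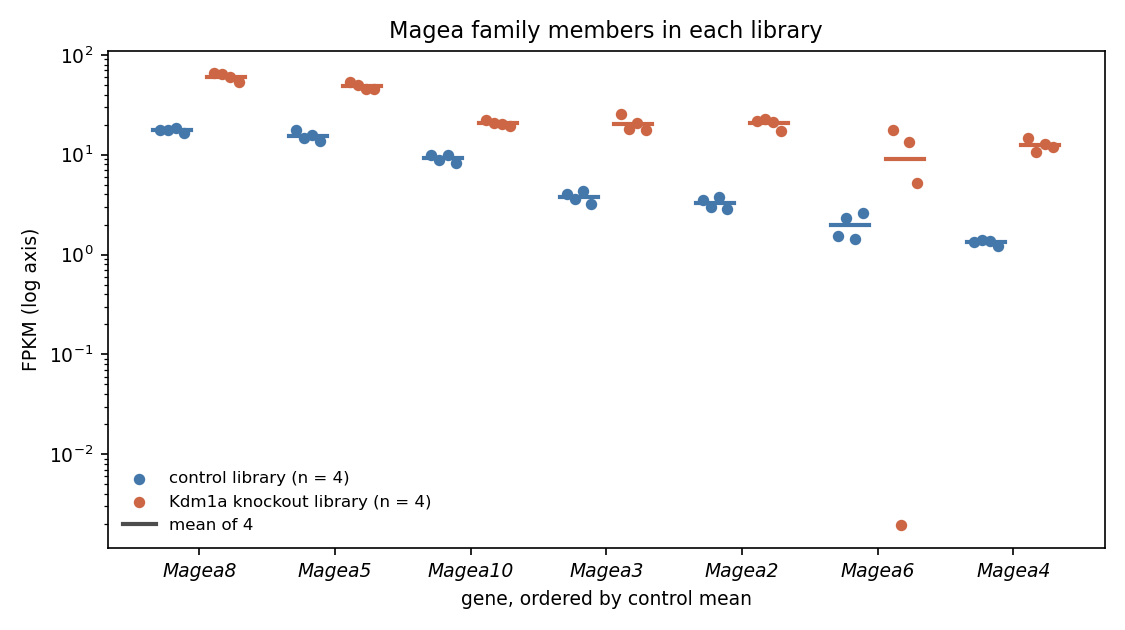
FPKM on a log axis of the 7 members in each library, control at the left and knockout at the right of each gene, with points for libraries (n = 4 per group) and lines for means. Knockout points lie above control points in every gene but Magea6, where knockout replicate 2 sits at 0.00195.

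Magea4 was the lowest member in the controls. It stood at 1.35, 1.39, 1.37 and 1.22 FPKM in control replicates 1 to 4 and at 14.8, 10.6, 12.9 and 11.9 in knockout replicates 1 to 4. The 4 controls were nearly level, and the lowest knockout was several times the highest control. Means were 1.33 ± 0.0749 and 12.5 ± 1.78, a 9.40-fold difference (log2 difference 2.53, SE 0.11), the largest fold in the family. Of 13483 genes it ranked at position 16 by log2 difference, and the other members ranked between 24 (Magea2) and 505 (Magea10). Nothing is read from these ranks, since the members were chosen with this contrast known. The control values rest on about 59.2 to 73.9 fragments a library and the knockout values on 384.0 to 747.8. MAGE-A4, the human counterpart by name, is known to bind the ubiquitin ligase RAD18.

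Magea10, its neighbour and the most diverged member, had the smallest fold. Control replicates stood at 10.0, 8.77, 9.94 and 8.33 FPKM and knockout replicates at 22.2, 21.0, 20.5 and 19.6. The groups were clearly apart and each varied little, with a coefficient of variation of 9.20% in the controls against 5.12% in the knockouts. The means of 9.27 ± 0.853 and 20.8 ± 1.07 differed 2.25-fold (log2 difference 1.09, SE 0.09). The members that share least sequence with other Magea genes thus stand at the top and the bottom of the range of folds.

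Magea8 was the most abundant member in both groups. It was at 17.7, 17.6, 18.7 and 16.4 FPKM in the controls against 65.4, 64.5, 59.5 and 53.3 in the knockouts. No value of either group came near the other. The means of 17.6 ± 0.934 and 60.6 ± 5.54 differed 3.44-fold (log2 difference 1.72, SE 0.09).

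Magea5 followed. Its 2 entries together gave 17.9, 14.7, 15.8 and 13.7 FPKM in the controls against 53.9, 49.8, 45.9 and 45.3 in the knockouts. The groups did not overlap, and the means of 15.5 ± 1.80 and 48.7 ± 3.96 differed 3.14-fold (log2 difference 1.59, SE 0.10). Magea5-202 was at 8.52 to 10.5 in the controls against 28.0 to 40.1 in the knockouts. Magea5-201 was at 4.75 to 7.31 and 9.79 to 22.1. Knockout replicate 2 had the highest value of the former and the lowest knockout value of the latter, so its split between the entries differed from that of the other libraries while its sum did not.

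Magea2 and Magea3 started low. Magea2 was at 3.56, 2.98, 3.77 and 2.86 FPKM in the controls against 21.7, 22.7, 21.3 and 17.1 in the knockouts, with means of 3.29 ± 0.438 and 20.7 ± 2.46 (6.29-fold, log2 difference 2.34, SE 0.12). Magea3 was at 4.00, 3.58, 4.32 and 3.22 in the controls against 25.4, 18.3, 20.7 and 17.7 in the knockouts, with means of 3.78 ± 0.481 and 20.5 ± 3.49 (5.42-fold, log2 difference 2.16, SE 0.13). In both genes every knockout value was several times every control value. Since Magea1 has no row and shares most of its sequence with Magea2, the part of Magea1 reads in the values of Magea2 was not tested.

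Magea6 was the only member whose groups overlapped. Control replicates 1 to 4 stood at 1.53, 2.30, 1.42 and 2.63 FPKM. Knockout replicates 1, 3 and 4 stood at 17.6, 13.6 and 5.26, and knockout replicate 2 was listed at 0.00195. Those 3 knockout libraries lay above all controls, but they spread more than 3-fold among themselves, unlike any other member. The mean was 1.97 ± 0.591 in the controls against 9.11 ± 7.96 in the knockouts (log2 difference 1.13, SE 0.78), and without knockout replicate 2 it was 12.1 ± 6.31 (n = 3), 6.17-fold above the controls. That library also listed more entries near 0 than any other: 509 of 26612 entries with a mean of at least 1 FPKM were under 0.01 in it, against 100 to 180 in the other 7. The part of this in the value of Magea6 was not tested. Without Magea6 the family sum differed 3.62-fold, almost the same as with it.

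In the controls Magea8 and Magea5 headed the order of levels and overlapped in range, Magea10 came next and stood apart, Magea3 and Magea2 overlapped, and Magea6 and Magea4 were last. In the knockouts Magea8 lay above Magea5 in each of the 4 libraries, although the ranges still touched (lowest 53.3, highest 53.9), while Magea10, Magea2 and Magea3 had means of 20.8, 20.7 and 20.5 that cannot be told apart by their spread. Levels were therefore closer together: the highest mean was 13.2 times the lowest in the controls against 4.84 times in the knockouts when Magea6 is left aside, or 6.66 times with it. The makeup of the family sum differed as well. Both the order of levels and the shares rest on single values, which are uncertain within the distal group. Magea10 made up 17.5% ± 0.450 (SD, n = 4) of the sum in the controls against 10.8% ± 0.674 in the knockouts, with no overlap. Magea4 made up 2.40% to 2.70% and 5.67% to 6.97%, Magea2 5.82% to 6.80% and 9.82% to 12.1%, and Magea3 6.67% to 7.81% and 9.79% to 11.5%. Magea5 made up 28.3% to 31.8% and 23.6% to 26.7%, also with no overlap. Magea6 made up 2.57% to 5.44% in the controls against 0.00104% to 7.98% in the knockouts. The share of Magea8 stayed within overlapping ranges, 31.6% to 34.3% and 29.6% to 34.5%. The proximal pair together differed 3.15-fold and the distal group 3.79-fold.

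**Figure D3:**
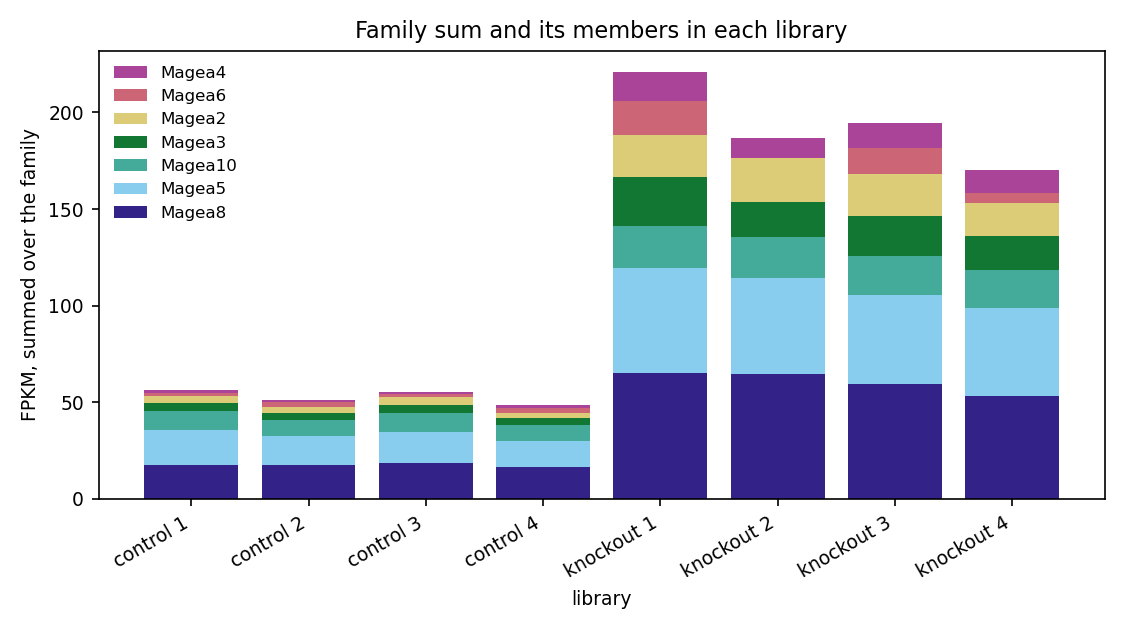
Stacked FPKM of the 7 members in each library, with the height of a bar giving the family sum. The sums run from 48.4 to 56.1 in the controls and from 170.2 to 220.9 in the knockouts, and the band of Magea6 is missing from knockout replicate 2.

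The other MAGE genes were taken as every other symbol starting with Mage, with Ndn, Ndnl2 and Tro. Of 20 genes listed there, 17 were tested, of which 12 rose, 0 fell and 5 were not called by limma, and 0 were lower even at an unadjusted p under 0.05. On the X chromosome 10 of 14 rose, against 50.4% of all X-linked genes. The list had a median log2 difference of 0.96 and ran from -0.15 (Mageb10-ps) to 1.51 (Mageb18). The Magea members, chosen with this contrast known, lay between 1.09 and 2.53, so the ranges overlapped. Magee1, Magee2 and Magel2 averaged under 1 FPKM and were not tested.

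Among the Mageb genes, the other large type I subfamily, 5 of 6 rose, beside 50.4% of X-linked genes and 25.3% of all genes. Mageb18 stood at 1.16, 0.925, 1.67 and 1.17 FPKM in the controls against 5.22, 4.71, 5.52 and 5.81 in the knockouts, 4.31-fold higher (log2 difference 1.51, limma adjusted p = 2.38e-05). Mageb2 stood at 6.02, 5.86, 6.06 and 6.57 in the controls against 12.6, 14.7, 13.4 and 12.3 in the knockouts (2.16-fold, adjusted p = 3.81e-05). In both genes all knockouts lay above all controls. Mageb1 rose 2.58-fold, Mageb16 1.65-fold and Mageb3, which lies on chromosome 2, 2.62-fold.

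Mageb4 was the exception and also the most abundant type I gene, with more FPKM in the controls than the whole Magea family. It was at 150.4, 139.7, 153.9 and 148.5 FPKM in the controls against 141.3, 157.9, 144.3 and 143.0 in the knockouts. The groups overlapped over most of their range, with a log2 difference of -0.02 (95% interval -0.18 to 0.15, adjusted p = 0.892). With equal totals its sign turned, to 0.70 (adjusted p = 0.0110). Mageb10-ps, whose deposited locus is shared with Mageb4, was at 125.2 ± 5.30 and 113.1 ± 7.03 and was not called (adjusted p = 0.159); it turned to 0.57 with equal totals (0.0370) and was called as lower after median-ratio scaling (log2 difference -0.30, 0.0140). Of the other 4 Mageb pseudogenes, Mageb17-ps rose 3.19-fold, Mageb6-ps 1.56-fold and Mageb7-ps 1.31-fold, and Mageb8-ps was not called. The call of Mageb7-ps (adjusted p = 0.0295) was lost after median-ratio scaling, after quantile normalization, with the replicate number as a block, and when control replicate 1, control replicate 2, knockout replicate 3 or knockout replicate 4 was left out (0.0523 to 0.0975).

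Of 6 type II genes tested, 4 rose, beside 50.4% of X-linked genes and 25.3% of all genes. Mageh1 stood at 1.44, 1.22, 2.31 and 2.17 FPKM in the controls against 5.35, 7.26, 6.10 and 6.30 in the knockouts, 3.50-fold higher (adjusted p = 0.000136). Maged2, at 12.5, 11.3, 13.1 and 14.8 in the controls against 36.7, 37.0, 29.6 and 29.8 in the knockouts, rose 2.57-fold (adjusted p = 3.74e-05). The groups of both genes were well apart. Tro, the gene for trophinin, rose 2.20-fold, and Ndn, the imprinted gene for necdin on chromosome 7, 2.00-fold. Maged1, the most abundant MAGE gene in these cells, was at 162.5 ± 9.34 and 173.3 ± 4.64 FPKM and missed the threshold (log2 difference 0.09, 95% interval -0.08 to 0.26, adjusted p = 0.363), except with equal totals, where it rose (0.00360). Ndnl2, which encodes a subunit of the SMC5/6 complex, was at 2.00 ± 0.237 and 2.36 ± 0.598 (adjusted p = 0.415), and was called as higher with equal totals (0.00745).

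**Figure D4:**
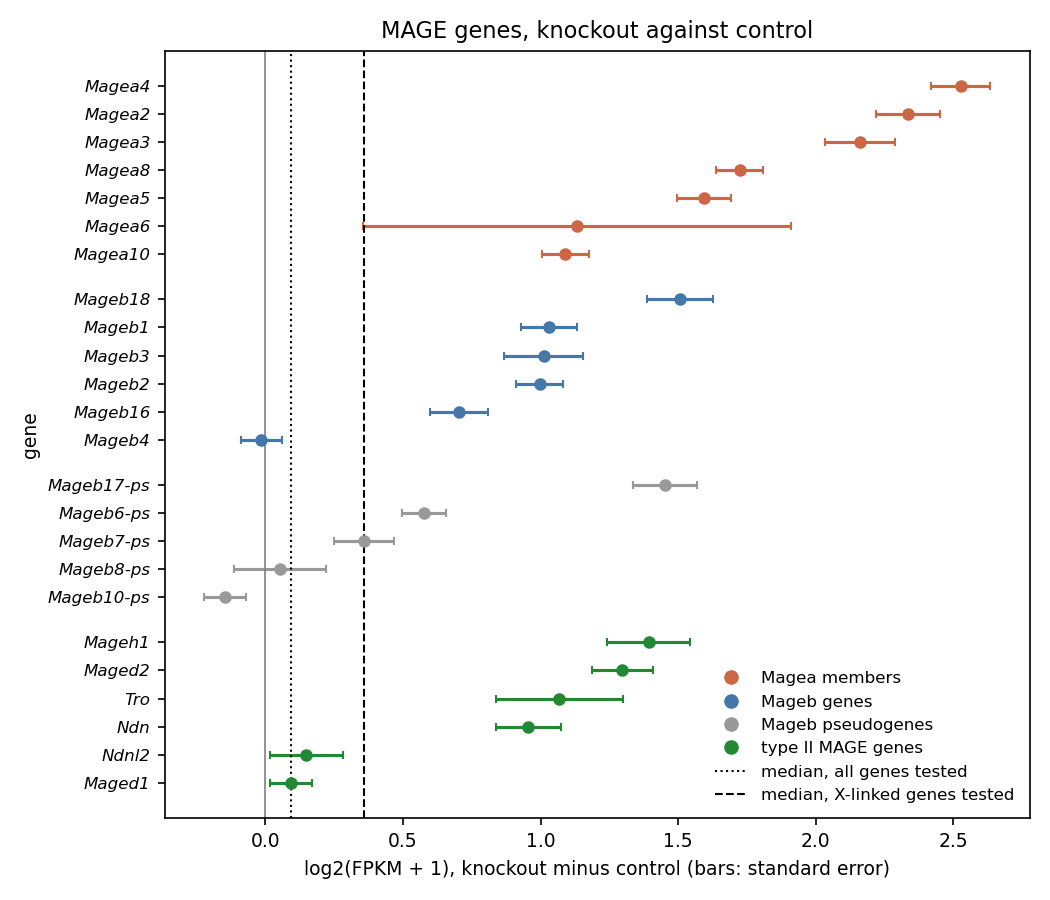
Difference of mean log2(FPKM + 1), knockout minus control, of the Magea members and the other MAGE genes tested, with bars for standard errors and vertical lines for the medians of all genes (0.09) and of X-linked genes (0.36). The Magea members lie between 1.09 and 2.53, Mageb4 at -0.02 and Maged1 at 0.09.

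Genes near the members were counted in the same fit. Within 500 kb of a member the table held 13 other genes, of which 11 were tested, 8 rose (50.4% of all X-linked genes did), 0 fell and 3 were not called by limma, and 0 were lower at an unadjusted p under 0.05. All 5 tested near the distal group rose. Gm16390, a protein-coding gene model 33.7 kb from the nearest member, was at 0.334, 0.613, 0.608 and 0.486 FPKM in the controls against 6.40, 5.90, 5.58 and 4.64 in the knockouts. Every knockout value was far above every control value, an 11.0-fold difference (adjusted p = 5.72e-06). Further out, Gm650, a processed pseudogene, rose 9.60-fold (210.5 kb), from 0.347 ± 0.0533 to 3.33 ± 1.66 FPKM. Sat1, a polyamine acetyltransferase, rose 1.49-fold (119.5 kb away), Acot9, a mitochondrial thioesterase, 1.47-fold (168.8 kb) and Prdx4, a peroxiredoxin, 1.78-fold (230.3 kb). The call of Sat1 was lost with the replicate number as a block (adjusted p = 0.0654).

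Near the proximal pair 3 of 6 rose, the share seen in X-linked genes at large. Gabre, a GABA receptor subunit 33.0 kb away, rose 2.36-fold, from 1.01 ± 0.159 to 2.39 ± 0.401 FPKM, Prrg3, a transmembrane Gla protein 249.3 kb away, 2.44-fold, and Vma21, an assembly factor of the vacuolar ATPase 382.3 kb away, 1.57-fold. The median log2 difference of the neighbours tested was 0.57, above the 0.36 of all X-linked genes and below every member. Single neighbours, Gm16390 (2.13) and Gm650 (1.59), lay within the range of the members. Whether the neighbours differ from other X-linked genes was not tested.

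The partners are genes whose proteins are known to work with MAGE proteins. Of 14 tested, 2 rose (25.3% of all genes did), 0 fell and 12 were not called by limma, and 0 were lower at an unadjusted p under 0.05; the median log2 difference was 0.09, as over all genes. Pja1, an E3 ligase that binds MAGED1 and is X-linked, rose 1.52-fold (adjusted p = 0.000556), and Nsmce4a, of the SMC5/6 complex, 1.37-fold (adjusted p = 0.00487), which its most abundant entry alone missed (0.0504). Trim28, the ligase bound by several type I MAGE proteins, was at 222.4 ± 11.4 and 220.2 ± 47.1 FPKM (95% interval of the log2 difference -0.34 to 0.28, adjusted p = 0.862). Rad18 was at 43.8 ± 3.37 and 42.8 ± 2.76 (95% interval -0.22 to 0.16, adjusted p = 0.813). With equal totals all 14 partners were called as higher.

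Among 26 other X-linked germ cell genes tested, 14 rose and 12 were not called by limma, and 0 were lower, also at an unadjusted p under 0.05. That is near the 50.4% of X-linked genes at large, and the median log2 difference of 0.33 was close to theirs. The clearest were Rhox13, a homeobox gene, 3.46-fold higher, Nxf3, of the mRNA export factor family, 4.39-fold higher, Esx1, a homeobox gene, 9.96-fold higher, and Xlr, of a multicopy X-linked family, 2.12-fold higher.

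Of 15 genes of DNA methylation tested, 3 rose and 0 fell by limma. At an unadjusted p under 0.05, 3 were lower: Dnmt3b (log2 difference -0.38), Tet3 (-0.65) and Zbtb33 (-0.50). The number that rose is near the 25.3% of all genes, and nothing particular to the list is read from it. The median log2 difference of the list was -0.14, against 0.09 over all genes. Those that rose were Dnmt3l, a cofactor of germ line methylation, 4.76-fold, Ctcfl, a germ cell paralogue of CTCF, 1.88-fold (from 3.05 ± 0.330 to 5.74 ± 1.04 FPKM, adjusted p = 0.00211), and Dppa3, a gene of early germ cells, 2.24-fold (adjusted p = 0.0487). Dppa3 lost its call in 10 of 17 alternatives (adjusted p 0.0784 to 0.147), among them without control replicates 1, 3 and 4 each, or knockout replicates 1, 3 and 4 each. The maintenance enzyme Dnmt1 was at 113.4 ± 14.8 and 99.1 ± 10.8 FPKM (adjusted p = 0.223) and its partner Uhrf1 at 110.8 ± 7.68 and 110.0 ± 2.46 (0.944). After median-ratio scaling 4 genes of this list were called as lower and 2 as higher.

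Markers of other testis cells were low beside those of germ cells, and their part in the family's values was not tested. The 8 Sertoli cell markers had sums of 20.3 to 55.5 FPKM in control libraries and 41.1 to 66.3 in knockout libraries, and 1 of 7 tested rose, the X-linked Rhox5. Their defining gene Sox9 was at most 0.975 FPKM in any library, but the other markers averaged more. Clu averaged 12.3 FPKM in the controls against 21.4 in the knockouts, and Aard 6.23 against 9.84. By library, Clu was at 25.1, 7.54, 7.05 and 9.62 in control replicates 1 to 4. It was at 20.3, 11.7, 27.6 and 26.0 in knockout replicates 1 to 4. Control replicate 1 thus lay within the range of the knockouts and far above the other controls. Amh was at 2.35 and 4.63, Gata4 at 2.05 and 3.40, Wt1 at 2.69 and 3.18, and Cldn11 at 1.32 and 1.22. Apart from Rhox5, no tested marker of this list was called. Of the endothelial markers Pecam1, a surface protein also known on early germ cells, rose, from 1.39 to 4.55 FPKM, while Cdh5 was at 1.86 and 2.08. The 2 blood markers in the table had sums of 0.282 to 0.760 FPKM in control libraries and 1.60 to 2.50 in knockout libraries. The higher sum came from Alas2, which averaged 0.289 FPKM in the controls against 1.65 in the knockouts. Hbb-b1 averaged 0.268 and 0.234, and neither gene was tested. The peritubular list was between 2.19 and 4.62 in the controls against 2.54 and 4.04 in the knockouts, and of the Leydig list only Star had a row, at 1.23 to 2.16 over the 8 libraries. In bulk samples more cells with a transcript and more RNA per cell cannot be told apart.

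Among the genes with a pattern most like the family sum, by Pearson correlation of log2(FPKM + 1) over the 8 libraries, were Anxa3 (0.998), an annexin, Snx2 (0.998), a sorting nexin, Thsd1 (0.998) and Hibch (0.998), an enzyme of valine breakdown. Anxa3 averaged 0.484 FPKM in the controls against 2.74 in the knockouts. These values mainly restate the separation of the groups. After each group's mean was subtracted, the highest were Anxa3 (0.950), Ispd (0.945), Zscan20 (0.943), Clstn1 (0.940) and Rgs2 (0.926), over 8 values that share group means, depth and sorting. Both sets are the top of a ranking over the genes tested, with numbered gene models, small RNAs, pseudogenes and members left out. High values are found by such a ranking alone, so nothing is read from them.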

How the data were processed

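Per the labels' protocols, testes were digested, GFP-positive cells sorted, and stranded mRNA libraries made with a TruSeq kit. The authors deposited FPKM per transcript; the tools named per the submitters' processing notes are Cuffdiff, Cufflinks, Bowtie and TopHat, with the build mm10. For versions, annotation release and filters: not given in the sources used here. Each FPKM is an estimate, so no count model was applied, and single values of near-identical genes are uncertain.

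Entries were summed by gene identifier. Genes averaging 1 FPKM or more were tested on log2(FPKM + 1), pseudocount 1, by limma 3.58.1 in R 4.3.3 (lmFit, eBayes with trend), group as the only term, two-sided, with a threshold of 0.05 on p adjusted by Benjamini-Hochberg over all genes tested. The fit was tested on simulated data with independent normal noise in each gene. That noise has no effects shared within a library, so the test does not cover the dependence on scaling. Log2 differences understate changes of low genes; folds are ratios of mean FPKM. Standard errors are limma's.

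Depth was the value that made most low FPKM whole fragments in 1695 single-transcript genes, after 140 or 150 bases were taken off each length; 69.3% to 79.6% of values came within 0.1 of a whole number. It is a description and fragment numbers cover counting only.

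Members and lists were chosen with earlier results of these data known. Named genes were the members, all MAGE genes tested, up to 4 called genes of each other list by adjusted p or the 2 of smallest p, neighbours, and the 5 genes most like the family sum, of which 1 is not reported here; Trim28, Rad18, Dnmt1, Uhrf1 and markers were named after their values were seen. Positions came from GENCODE M21 and sequences from RefSeq. Alternatives covered pseudocount, filter, scaling, trend, replicate block, single entries and each library left out. The family sum without Magea6 was added after seeing the data.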

Additional observations from a re-analysis of the deposited data

How the results depend on the processing

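The log2 difference of the Magea family sum, 1.85, kept its sign under every alternative run. It was 2.56 with equal totals and 1.70 after median-ratio scaling, ran from 1.78 to 1.91 with 1 library left out, and was 1.84 without Magea6, an alternative chosen after seeing the data. Set against the median of all genes (0.09 as deposited, 0.74 with equal totals, -0.04 after median-ratio scaling) the sum stood 1.75, 1.83 and 1.74 higher. Mir5105, a microRNA gene, held 61.3% to 77.1% of all FPKM per control library but 29.4% to 52.7% per knockout library, and so sets the equal totals. Each member kept its sign in 17 alternatives, though Magea6 ran from 0.62 to 2.03 with 1 library left out. Of all genes, 3417 rose and 1635 fell. The rises numbered 2164 with a minimum mean of 5 FPKM, where fewer genes are tested, and 9808 with equal totals. The falls numbered 147 with equal totals, 2769 after median-ratio scaling and, by quantile normalization, 2648. With equal totals 14 partner genes, 26 X-linked germ cell genes and 8 DNA methylation genes were called as higher. After median-ratio scaling 1 other MAGE gene, 1 X-linked germ cell gene and 4 DNA methylation genes were called as lower, and 3 of the last list after quantile normalization. Leaving out 1 library gave 0 to 2 falls among the DNA methylation genes (2 without control replicate 4 or knockout replicate 1, 1 without knockout replicate 2) and 0 to 1 among the neighbours, where Rpl30-ps10 was called without control replicate 1. With the minimum of 5 FPKM 4 neighbours and 0 DNA methylation genes rose. The signs of Mageb4 (0.70) and Mageb10-ps (0.57) turned with equal totals. Other causes were not tested. The labels do not say whether replicate numbers pair the libraries. The deviations of same-numbered libraries from their group means correlated at 0.22, -0.12, -0.13 and -0.09. Those of differently numbered libraries ran from -0.33 to 0.25. Such deviations depend on single deviant libraries and cannot settle whether the libraries are paired. With the replicate block 2983 genes rose and 1408 fell, and the family sum stayed at 1.85.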
